A study of Mus musculus with 10 samples.

Results

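Compound 10 was tested for an effect that depended on whether the T cells had been stimulated. The series' own text calls it a chemical inhibitor of NFAT:AP-1. All libraries of the series entered, 10 of 10, and were taken by their labelled group. Each group held naive CD4 T cells, sorted as CD4+CD62L+CD69- cells from the spleens of C57BL/6 mice, with no genetic change, age or sex named in the labels. All cells were first exposed for 1 h to the solvent DMSO, called vehicle here, or to 12.5 µM Compound 10. Those left unstimulated gave 3 vehicle and 2 Compound 10 libraries. The others then received 10 nM PMA and 1 µM ionomycin for 2 h and gave 2 vehicle and 3 Compound 10 libraries. Whether libraries of the same group stem from different mice or cultures is not in the labels, so the p-values measure the spread between these libraries, which may be technical. Stimulation was by drugs that bypass the T cell receptor, and the libraries cover 1 dose and 1 duration of stimulation. The labels give unstimulated cells the 1 h exposure alone and stimulated cells 2 h more. Stimulation, and with it the interaction, cannot be told apart from this difference in time.

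NFAT is a transcription factor that enters the nucleus when calcium rises and calcineurin removes its phosphates. AP-1 is formed by Fos and Jun proteins, whose supply grows when protein kinase C and MAP kinases are active. On many cytokine and activation genes of T cells the proteins bind side by side on DNA as a composite complex, while other NFAT targets, several of them linked to anergy, are bound by NFAT without AP-1. PMA activates protein kinase C and ionomycin raises calcium, so that the pair drives both arms.

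The interaction is the log2 fold change of Compound 10 against vehicle in stimulated cells minus that in unstimulated cells, and equals the response to stimulation with Compound 10 minus the response with vehicle. A negative value therefore means that the level with compound, relative to vehicle, was lower in stimulated than in unstimulated cells. It is a statement about ratios, and a gene can have a large interaction through a small absolute change at a low resting level. All levels below are estimated gene counts scaled to the library total with TMM factors (CPM), listed in the order of the library numbers, with vehicle before "and then" and Compound 10 after it. A log2 fold change is followed by its SE. Totals ran from 10694591 to 33486259 estimated counts per library. In bulk RNA, fewer cells of a type and less RNA per cell cannot be told apart.

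The 12 T cell identity markers (Cd3 chains, Cd4, Lck and others) were measured in every group, with sums of 3367 to 4517 CPM. Sums over markers of CD8 T cells (1.98 to 8.54 CPM), B cells (3.44 to 12.6), NK cells (2.23 to 12.2) and erythroid cells (0 to 0.621) were low, and none of these lists had a member with a called interaction. Myeloid markers summed to between 17.7 and 32.8 CPM in unstimulated vehicle cells, 11.1 and 11.8 in unstimulated Compound 10 cells and 2.57 to 7.11 in stimulated cells. Memory or effector markers, which include Cd44 and Il2rb, summed to between 196 and 233 CPM in unstimulated vehicle cells, 437 and 505 in unstimulated Compound 10 cells, 385 and 440 after stimulation with vehicle and 451 and 548 after stimulation with Compound 10. Regulatory T cell markers summed to 84.8 to 134 CPM except in stimulated vehicle cells (166 and 222), a list that holds Il2ra itself. These sums lack the TMM factors, which were larger at rest than after stimulation. With the factors, resting sums would be lower relative to stimulated ones, so the sums are not a comparison between the states. They are also not on the scale of the gene levels. The part of other cells in the results below was not tested.

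Of 14417 genes tested, 956 (6.63%) had a called interaction at adjusted p under 0.05 (edgeR's quasi-likelihood test, Benjamini-Hochberg), 588 negative (4.08%) and 368 positive (2.55%). Compound 10 itself changed 3350 genes (23.2%) in stimulated and 1215 (8.43%) in unstimulated cells. Sorted by these simple effects, 669 of the 956 (70%) were called in stimulated cells and not in unstimulated cells, 430 with a negative and 239 with a positive interaction. Another 144 (15.1%) were called in unstimulated cells and not in stimulated cells, 75 negative and 69 positive. In 60 genes (6.28%) the compound acted in both states with opposite signs, 37 negative and 23 positive. In 44 (4.6%) it acted in both states with the same sign and a different size, 32 negative and 12 positive, and 39 (4.08%) passed in neither state.

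A state that missed the threshold is not thereby shown to be unaffected, so the interval there matters. Among the 430 genes lower in stimulated cells, the 95% interval of the resting effect lay within 1 log2 unit of 0 for 360, as it did for 173 of the 239 higher genes. Among genes of the resting class, the interval in stimulated cells lay within 1 for 53 of the 75 negative and 39 of the 69 positive genes. By construction the groups were nearly all separate in the state that was called: in stimulated cells for 430 of 430 and 238 of 239 (54.6% of all genes tested), and at rest for 75 of 75 and 69 of 69 (37.9%). The count of 956 fell to 191 and 282 without stimulated vehicle library 1 or 2, to 423 without unstimulated Compound 10 library 2, to 520 and 579 without stimulated Compound 10 library 1 or 2 and to 532 without unstimulated vehicle library 2. All 956 genes kept their sign in each alternative fit in which they were tested, and 161 (129 negative, 32 positive) were called also in each of the 10 fits without 1 library. These fits share libraries with the fit that selected the 956, so the kept signs are no independent support. Split by sign, the calls were 494 positive and 476 negative with upper-quartile scaling and 527 positive and 314 negative with no scaling, which moved the median interaction of all genes from -0.00 to 0.09 and 0.19.

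**Figure D1:**
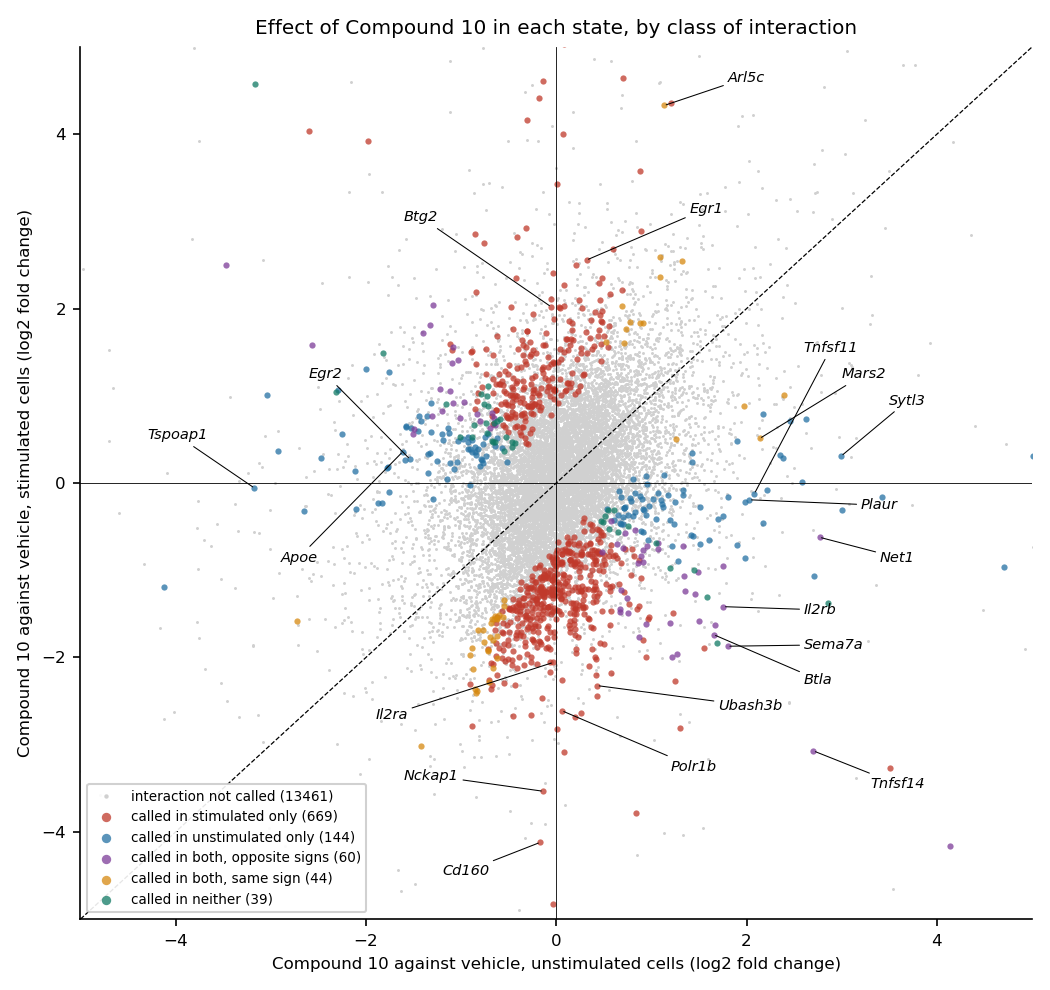
Each point is a gene, placed by the log2 fold change of Compound 10 against vehicle in unstimulated (horizontal) and stimulated (vertical) cells and coloured by class of called interaction, with 130 genes beyond 5 on an axis not drawn. Genes on the dashed diagonal have no interaction, the 669 red genes lie above and below the middle near 0 on the horizontal axis, and the 144 blue genes lie left and right near 0 on the vertical axis.

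Il2ra, Btg2, Tnfsf11 and Sema7a stand here for the patterns described in turn next: lower in stimulated cells, higher in stimulated cells, different at rest, and opposite in the states. They were picked after their values were seen. Their RefSeq promoter windows (GRCm38.p6, 300 bases around the start site) each hold the NFAT core GGAAA on 1 strand, marked in capitals as GGAAA or its complement TTTCC, and none holds the AP-1 motif TGANTCA. Il2ra lies at chr2:11642542-11642841 (+ strand), Btg2 at chr1:134079106-134079405 (- strand), Tnfsf11 at chr14:78307994-78308293 (- strand) and Sema7a at chr9:57939862-57940161 (+ strand).
Il2ra: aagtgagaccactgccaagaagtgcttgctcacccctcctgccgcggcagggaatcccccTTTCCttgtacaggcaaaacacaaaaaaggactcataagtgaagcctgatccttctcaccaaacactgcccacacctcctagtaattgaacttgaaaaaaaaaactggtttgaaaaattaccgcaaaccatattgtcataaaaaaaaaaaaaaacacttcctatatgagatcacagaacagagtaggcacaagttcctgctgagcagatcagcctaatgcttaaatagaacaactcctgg
Btg2: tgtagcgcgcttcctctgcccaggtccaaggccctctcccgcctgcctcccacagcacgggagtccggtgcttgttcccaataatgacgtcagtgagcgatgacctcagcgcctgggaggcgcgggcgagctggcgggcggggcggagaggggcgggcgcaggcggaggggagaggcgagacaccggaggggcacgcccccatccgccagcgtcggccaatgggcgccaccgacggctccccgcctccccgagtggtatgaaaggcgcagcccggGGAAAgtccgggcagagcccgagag
Tnfsf11: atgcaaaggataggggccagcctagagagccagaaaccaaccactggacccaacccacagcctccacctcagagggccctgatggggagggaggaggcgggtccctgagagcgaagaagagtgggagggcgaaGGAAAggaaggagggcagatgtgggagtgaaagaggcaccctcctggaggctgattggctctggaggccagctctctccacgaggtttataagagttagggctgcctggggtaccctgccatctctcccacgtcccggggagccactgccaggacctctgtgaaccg
Sema7a: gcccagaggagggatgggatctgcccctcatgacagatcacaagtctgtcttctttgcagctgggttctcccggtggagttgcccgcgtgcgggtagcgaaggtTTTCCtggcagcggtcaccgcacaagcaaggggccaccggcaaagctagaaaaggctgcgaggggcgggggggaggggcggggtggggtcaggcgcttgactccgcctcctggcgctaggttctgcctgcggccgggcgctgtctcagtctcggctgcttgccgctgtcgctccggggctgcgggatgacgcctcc

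Such matches were common and are a description of letters, not of binding. GGAAA, searched on both strands, was present in 59.0% of the 12408 windows of 9793 tested genes, in 59.8% of windows of genes lower in stimulated cells and in 61.5% of those higher there. Among genes different at rest the share was 60.3% (negative interaction) and 60.5% (positive). TGANTCA was in 4.99% of windows of tested genes, 6.39% and 2.72% of the stimulated class (negative and positive) and 2.94% and 8.64% of the resting class. The joined NFAT and AP-1 motif, GGAAA and then TGNNTCA after a gap of 3 bases, was found in 6 windows of tested genes (0.0484%) and in no window of the stimulated or resting class. The E-box CACGTG, bound by Myc and related factors, was in 10.1% of windows of tested genes, 15.8% (69 of 438) of those lower in stimulated cells and 4.41% (3 of 68) of those with a negative interaction from the resting state. Btg2 also holds the cyclic AMP response element TGACGTCA, found in 3.06% of windows of tested genes.

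Genes lower with Compound 10 in stimulated cells alone included the high-affinity interleukin 2 receptor chain, regulators of receptor signalling and the machinery that makes ribosomes. Il2ra (chromosome 2, 11642807 to 11693193), which encodes the alpha chain of that receptor, was at 5.20, 5.13 and 3.96 CPM with vehicle at rest and 5.56 and 3.87 with Compound 10 at rest. Stimulation took it to 152 and 184 CPM with vehicle and to 30.6, 48.5 and 41.7 with Compound 10. The resting groups overlapped and the stimulated groups did not. The interaction was -2.03 ± 0.33 (adjusted p = 0.0068, edgeR's quasi-likelihood test), made of -2.06 ± 0.23 in stimulated and -0.03 in unstimulated cells (95% interval -0.58 to 0.52).

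For several genes the response to stimulation seen with vehicle was nearly missing with the compound. Ubash3b (chromosome 9, 41011098 to 41161697), a phosphatase that restrains T cell receptor signalling, was at 16.1 to 20.05 CPM and 22.5 to 24.6 CPM in unstimulated vehicle and Compound 10 cells. It reached 118 and 128 CPM in stimulated vehicle cells and 26.4, 27.8 and 19.5 with the compound (interaction -2.75 ± 0.26, adjusted p = 0.000658, edgeR's quasi-likelihood test). Thus stimulation raised it 7.04-fold with vehicle and 1.04-fold with Compound 10, the latter not called.
Cd160, an inhibitory and costimulatory receptor, was at 0.657, 0.839 and 1.00 CPM at rest with vehicle, 0.511 and 0.929 at rest with compound, 16.4 and 17.4 after stimulation with vehicle, and 0.884, 1.11 and 0.884 after stimulation with compound. Every stimulated Compound 10 library was within or just above the resting range. The interaction of Cd160 was -3.95 ± 0.50 (adjusted p = 0.00215, edgeR's quasi-likelihood test). Nckap1, a subunit of the WAVE complex that drives actin branching, rose from between 3.91 and 5.28 CPM to 77.0 and 65.3 with vehicle, and lay at 5.09, 9.17 and 4.07 in stimulated Compound 10 cells against 2.62 and 5.37 at rest. Its interaction was -3.40 ± 0.49.
Il6st, the shared signal chain of interleukin 6 type receptors (interaction -2.53 ± 0.39), rose 2.17 on the log2 scale on stimulation with vehicle, against -0.35 with Compound 10, which was not called. Rgs3, a brake on G protein signals (-2.94 ± 0.38), and Gpat3, an acyltransferase of glycerolipid synthesis (-2.88 ± 0.44), kept part of their response: stimulation raised them 2.62-fold and 2.72-fold with Compound 10, both called, and by 4.33 and 4.32 on the log2 scale with vehicle. For Ubash3b, Rgs3 and Il6st the resting groups were also separate. Rgs3 was at 4.93, 5.41 and 2.78 CPM and then 9.26 and 7.48 at rest, and Il6st at 54.2, 58.3 and 32.1 CPM and then 110.2 and 77.3. The resting differences, of 0.43 for Ubash3b, 0.94 for Rgs3 and 0.96 for Il6st, entered the interactions. They were not called (adjusted p = 0.190, 0.0581 and 0.0566, edgeR's quasi-likelihood test).

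Ribosome biogenesis genes formed the list with the most calls. Of its 44 members 27 had a negative interaction (against 4.08% of all genes tested) and 1 a positive one, with a median of -1.13 against -0.00 for all genes. In stimulated cells 35 of the 44 were lower with Compound 10 and none higher (12.8% and 10.4% of all genes), with a median of -1.20, and in unstimulated cells 2 were lower and 1 higher (3.78% and 4.65% of all genes), with a median of -0.08. Polr1b, a subunit of the RNA polymerase that transcribes ribosomal RNA, was at 27.3, 25.6 and 21.2 CPM in unstimulated vehicle cells, 31.2 and 20.4 with compound, 115 and 108 after stimulation with vehicle and 13.7, 21.8 and 19.1 after stimulation with Compound 10. Here 2 of the 3 stimulated Compound 10 libraries lay below every resting library, and the interaction was -2.67 ± 0.33 (adjusted p = 0.00215, edgeR's quasi-likelihood test).

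Other members that build the subunits were Rrp1b (-2.75 ± 0.35), Noc4l (-1.73 ± 0.23) and Tsr1 (-1.55 ± 0.21). Tsr1, a factor of small subunit maturation, was at 41.7 to 48.2 CPM at rest with vehicle, 44.1 and 49.9 with compound, 261 and 267 after stimulation with vehicle and 90.5, 104 and 84.7 with compound. The exceptions were Ddx10, an RNA helicase with a positive interaction of 0.87 called in neither state, Gnl3, higher at rest and lower in stimulated cells, and Rrs1 and Utp15, lower in both states. These exceptions were named after their values were seen. Without stimulated vehicle library 1 or 2 the negative count was 13 in each case, while the median stayed between -1.23 and -1.08 over the fits without 1 library. The 10 genes of the Myc network list had no called interaction by edgeR's quasi-likelihood test. Myc itself lay at 2596 and 2585 CPM in stimulated vehicle and 2113, 2268 and 2528 in stimulated Compound 10 cells (interaction -0.29, 95% interval -0.76 to 0.18).

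Transcription factors and metabolic genes were also among those lower in stimulated cells alone. Nfatc1, the NFAT gene that is itself induced on activation, was at 72.3 to 98.6 CPM and 66.4 to 99.2 CPM at rest, 1181 and 1105 after stimulation with vehicle and 384, 434 and 461 after stimulation with Compound 10. Its interaction was -1.33 ± 0.27 (adjusted p = 0.0163, edgeR's quasi-likelihood test). The adjusted p was 0.0541 without unstimulated Compound 10 library 1, and 0.0911 and 0.0681 without stimulated vehicle library 1 or 2. Zfp36l1, which promotes decay of AU-rich mRNAs, went to 4265 and 4078 CPM with vehicle and 1698, 1622 and 2025 with Compound 10 (-1.27 ± 0.21), Cyp51, a sterol synthesis enzyme, to 511 and 411 against 183, 141 and 145 (-1.91 ± 0.27), and Pgam1, a glycolytic enzyme, to 571 and 522 against 205, 195 and 211 (-1.34 ± 0.19). For these 3 genes the stimulated groups were separate, and the resting effects were 0.04, 0.35 and -0.08.

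With TMM scaling, genes higher with Compound 10 in stimulated cells alone were fewer than those lower, and included the early response genes Egr1 and Btg2. The balance of positive and negative calls changed with other scalings, as given above. Egr1, a zinc finger factor induced through MAP kinase signals, was at 215, 165 and 152 CPM in unstimulated vehicle cells, 205 and 238 in unstimulated Compound 10 cells, 1880 and 2294 after stimulation with vehicle and 13968, 10585 and 12298 after stimulation with Compound 10. Stimulation raised it 11.8-fold with vehicle and 55.5-fold with the compound, an interaction of 2.24 ± 0.27 (adjusted p = 0.00215, edgeR's quasi-likelihood test). Btg2, an antiproliferative factor, was at 161 to 190 CPM and 157 to 178 CPM at rest, 671 and 694 after stimulation with vehicle, and 2705, 2852 and 2756 with the compound. Its interaction was 2.07 ± 0.19 (adjusted p = 0.000658) and its resting effect -0.05 (95% interval -0.35 to 0.24).

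In other genes the vehicle cells did not respond or went down. Icam1, the ligand of the integrin LFA-1, was at 111 to 143 CPM at rest with vehicle, 148 and 126 at rest with compound, 106 and 153 after stimulation with vehicle, and 460, 431 and 499 after stimulation with the compound. Stimulation thus changed Icam1 1.06-fold with vehicle, which was not called, and 3.38-fold with Compound 10 (interaction 1.67 ± 0.27, adjusted p = 0.00633, edgeR's quasi-likelihood test). Ehmt2, which encodes the histone methyltransferase G9a, went from 58.6, 48.2 and 39.5 CPM to 8.37 and 13.7 with vehicle, and from 33.4 and 25.3 to 34.3, 27.8 and 34.5 with compound (2.27 ± 0.36).
The fall with stimulation seen in vehicle cells was therefore not seen with the compound. Of the 239 genes in this group, 209 were repressed by stimulation with vehicle, against 19.4% of all genes tested. The median response of the 209 was -1.77 with vehicle and -0.14 with Compound 10. These figures share the vehicle libraries with the interaction and describe its make-up only. Xrcc1, a scaffold of single-strand break repair, had 2.23 ± 0.38, Tmie 2.19 ± 0.44, Sh3d21 2.69 ± 0.58 and Rundc3b 2.78 ± 0.59. These 4 calls were lost without 1 library: Xrcc1 and Tmie without stimulated vehicle library 1 (values 2.10 and 1.71), Sh3d21 without stimulated vehicle library 2 or unstimulated vehicle library 2 (2.21 and 2.54), and Rundc3b without unstimulated Compound 10 library 2 or stimulated vehicle library 1 (2.78 and 2.21). For Xrcc1 the resting groups were also separate, with a difference of -0.46 that was not called (adjusted p = 0.308, edgeR's quasi-likelihood test).

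A separate set of negative interactions arose in resting cells, where Compound 10 alone raised genes that stimulation also raised. Tnfsf11, which encodes the TNF family ligand RANKL, was at 2.41, 1.86 and 2.01 CPM with vehicle at rest and 10.0 and 7.78 with Compound 10 at rest. After stimulation it was at 127 and 96.5 CPM with vehicle and 106, 110 and 92.0 with Compound 10. The groups were apart at rest and overlapped after stimulation, with effects of 2.08 ± 0.21 at rest and -0.12 (95% interval -0.53 to 0.28) in stimulated cells. The interaction was -2.20 ± 0.28 (adjusted p = 0.00215, edgeR's quasi-likelihood test), although the resting rise was small beside the stimulated level.

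Plaur, the urokinase receptor, was at 6.46, 6.62 and 7.80 CPM and then 26.6 and 30.4 at rest, and at 242 and 251 and then 181, 191 and 276 after stimulation (interaction -2.22 ± 0.27). Sytl3, a Rab27 effector of vesicle traffic, was at 0.329, 0.559 and 0.746 CPM and then 4.73 and 4.44 at rest, and at 16.7 and 19.6 and then 17.6, 22.2 and 27.8 after stimulation (-2.69 ± 0.42). For both genes the resting groups were separate and the stimulated groups overlapped. Tnfsf8, the ligand of CD30, rose from between 3.44 and 5.04 CPM to 11.5 and 14.6 at rest (-2.25 ± 0.34). Its stimulated groups were separate in the other direction, at 46.9 and 62.1 and then 29.3, 44.2 and 30.9 CPM, a difference of -0.65 that was not called (adjusted p = 0.0725, edgeR's quasi-likelihood test). Dse, an epimerase that makes dermatan sulfate, differed in kind, since stimulation did not raise it with vehicle: it was at 5.31, 4.94 and 5.25 CPM with vehicle at rest, 20.7 and 20.2 with compound at rest, and 4.64 to 6.95 in all 5 stimulated libraries (-2.19 ± 0.33).
Mfsd2a, a lysolipid transporter, had -2.61 ± 0.60 (adjusted p = 0.0266), a call that 7 of the 10 fits without 1 library did not make (adjusted p up to 0.118). It was at 2.41, 1.12 and 0.688 CPM and then 7.47 and 2.86 at rest, and at 164 and 134 and then 89.99, 93.6 and 90.2 after stimulation. Both pairs of groups were separate, and the difference of -0.71 in stimulated cells was not called.

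Receptors of activated T cells were among the genes raised at rest. Of 30 activation, costimulatory and inhibitory receptors, 12 were higher with Compound 10 in unstimulated cells and none lower (4.65% and 3.78% of all genes), with a median of 0.52. In stimulated cells 4 were higher and 8 lower (10.4% and 12.8% of all genes), with a median of -0.35. The interaction was negative for 10 and positive for none (4.08% and 2.55% of all genes), with a median of -0.60. With upper-quartile or no scaling 1 was positive beside 10 or 8 negative. Of the 10, Cd44, Cd5, Slamf1 and Tfrc were called at rest alone, Il2ra, Icos and Cd160 in stimulated cells alone, and Il2rb, Btla and Cd6 in both with opposite signs. Those outside the naming rule are given because the groups are small. Cd44 (hyaluronan receptor), Cd5 (a restraint on receptor signals) and Tfrc (transferrin receptor) had interactions of -2.01, -1.96 and -1.46. Cd44 is also 1 of the memory markers, whose sums were 437 and 505 CPM in unstimulated Compound 10 cells against 196 to 233 with vehicle. The part of these sums in the resting results was not tested.

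Positive interactions from the resting state were mainly falls with Compound 10 that were not seen after stimulation. Tspoap1, which encodes a protein that binds the mitochondrial translocator protein, was at 42.5, 41.0 and 27.0 CPM with vehicle at rest and 3.96 and 4.17 with Compound 10 at rest. After stimulation it was at 57.2 and 49.2 CPM with vehicle and 54.8, 51.6 and 46.8 with the compound. A 9.01-fold difference at rest (-3.17 ± 0.24) thus stood beside overlapping stimulated groups (-0.06, 95% interval -0.51 to 0.40), and the interaction was 3.11 ± 0.31 (adjusted p = 0.00088, edgeR's quasi-likelihood test). Egr2, an NFAT target linked to anergy, was at 106, 63.8 and 43.1 CPM and then 28.4 and 20.6 at rest, and at 1476 and 1586 and then 1916, 1813 and 1824 after stimulation. Vehicle library 1 was the highest at rest, the stimulated groups did not overlap although their difference of 0.27 was not called, and the interaction was 1.81 ± 0.42 (adjusted p = 0.029).

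That call for Egr2 was not made in 7 of the 10 fits without 1 library, namely those without stimulated vehicle library 1 or 2 (adjusted p = 0.135 and 0.105, edgeR's quasi-likelihood test), any of the 3 stimulated Compound 10 libraries (0.0665, 0.0602 and 0.0522), unstimulated Compound 10 library 2 (0.111) or unstimulated vehicle library 2 (0.0541). Apoe, a lipoprotein component abundant in myeloid cells, was at 55.3, 56.1 and 69.7 CPM and then 21.1 and 18.4 at rest, and at 5.54 and 7.79 and then 11.4, 6.51 and 8.14 after stimulation (1.97 ± 0.36). The myeloid marker sums moved with it, from 17.7 to 32.8 CPM down to 11.1 and 11.8 at rest, and their part in it was not tested. Without stimulated vehicle library 1 the interaction of Apoe was 1.76 with adjusted p = 0.0729.
Nek1, a NIMA-related kinase, fell at rest from 27.1, 28.1 and 20.5 CPM to 9.32 and 5.55, with an interaction of 1.95 ± 0.36, and its adjusted p was 0.0622 and 0.0679 without stimulated vehicle library 1 or 2.

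**Figure D2:**
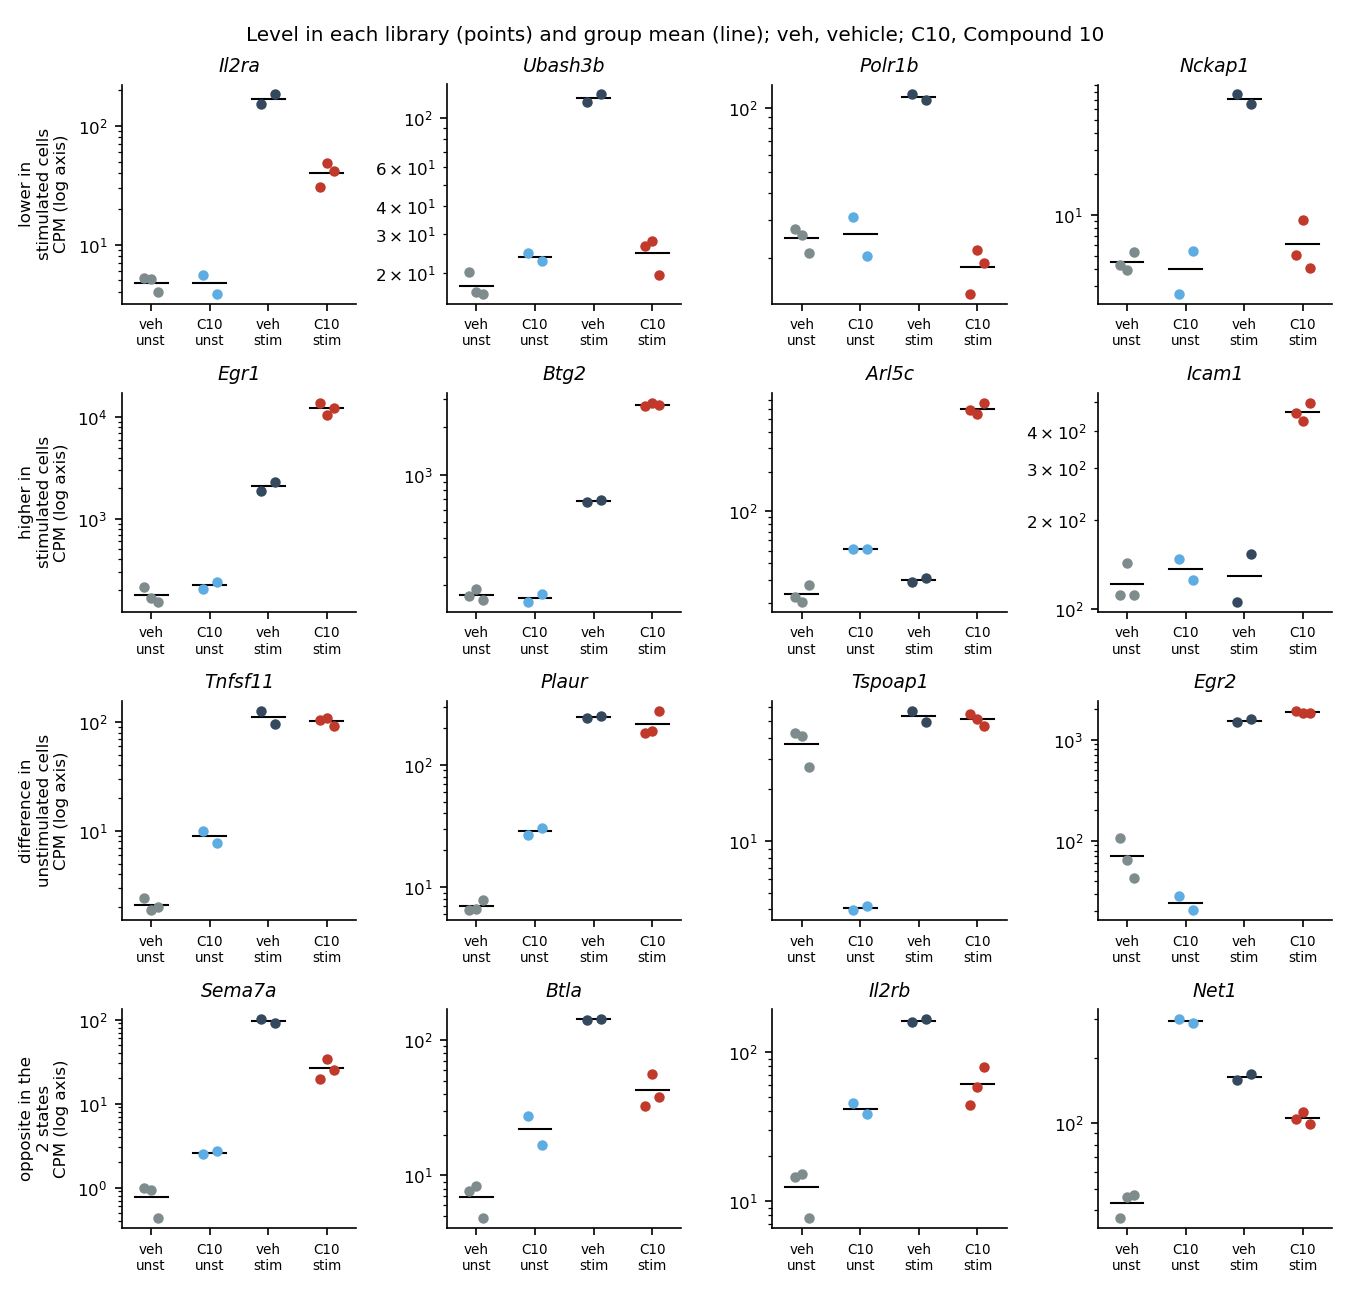
Levels in CPM on log axes in each of the 10 libraries (points) with group means (lines), for 4 genes of each pattern; Arl5c, in the row of genes higher in stimulated cells, was also higher at rest. In the upper 2 rows the stimulated Compound 10 libraries stand apart from the stimulated vehicle libraries, in the row below these the resting groups do, and in the bottom row the order of vehicle and compound turns over.

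In 60 genes the sign of the Compound 10 effect turned over with stimulation. The negative ones among them, raised at rest and lowered after stimulation, were mainly genes induced by stimulation with vehicle (34 of 37, against 19.5% of all genes tested). So were 479 of all 588 genes with a negative interaction. The interaction shares the vehicle libraries with that response, so these counts describe its make-up only. Sema7a, a membrane-anchored semaphorin, was at 0.986, 0.932 and 0.430 CPM with vehicle at rest and 2.49 and 2.71 with Compound 10 at rest. It was at 101 and 90.9 CPM after stimulation with vehicle and 19.6, 34.1 and 24.8 after stimulation with Compound 10. Neither pair of groups overlapped, and the effects were 1.80 ± 0.34 at rest and -1.87 ± 0.27 after stimulation. The interaction was -3.67 ± 0.44 (adjusted p = 0.00211, edgeR's quasi-likelihood test).

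A few receptors of lymphocyte activation were in this class: of the 30 activation, costimulatory and inhibitory receptors tested, 3 were, namely Btla, Il2rb and Cd6, while 4 were called at rest alone, 3 in stimulated cells alone and 20 had no called interaction. Of all 14417 genes tested, 60 were in this class, 144 in that called at rest alone and 669 in that called in stimulated cells alone. Btla, an inhibitory receptor, was at 7.72, 8.39 and 4.82 CPM and then 27.3 and 16.6 at rest, and at 141 and 142 and then 32.7, 56.3 and 38.03 after stimulation (-3.39 ± 0.41). Il2rb, the beta chain of the interleukin 2 receptor, was at 14.4, 15.1 and 7.63 CPM and then 45.1 and 38.2 at rest, and at 157 and 166 and then 43.9, 58.4 and 79.0 after stimulation (-3.18 ± 0.41). With Compound 10 the stimulated level of Il2rb was 1.45-fold that of resting cells, which was not called, against 13.1-fold with vehicle. Cd6, a scavenger-type costimulatory receptor, was at 104, 103 and 107 CPM and then 293 and 233 at rest, and at 323 and 343 and then 198, 198 and 212 after stimulation (-2.05 ± 0.20). Tnfrsf9, the costimulatory receptor 4-1BB, had -2.64 ± 0.28, with 3.78 to 4.52 CPM and then 9.13 and 6.08 at rest, and 79.8 and 82.9 and then 24.0, 26.05 and 21.7 after stimulation.

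Net1, an exchange factor for the GTPase RhoA, had the smallest adjusted p among the genes named here. It was at 36.7, 45.9 and 47.0 CPM at rest with vehicle, 300 and 289 at rest with compound, 158 and 168 after stimulation with vehicle, and 105, 113 and 99.4 after stimulation with compound. In vehicle cells stimulation raised Net1 3.76-fold, and in Compound 10 cells it lowered Net1 2.78-fold (interaction -3.39 ± 0.21, adjusted p = 4.78e-05, edgeR's quasi-likelihood test). Ptch1, the Hedgehog receptor, turned over likewise, at 3.56, 5.92 and 4.22 CPM and then 19.7 and 9.59 at rest, and 18.4 and 17.8 and then 5.42, 7.88 and 4.25 after stimulation (-3.30 ± 0.50). Map3k8, a kinase upstream of ERK (-1.75 ± 0.24), and Tiparp, an aryl hydrocarbon receptor target (-1.29 ± 0.21), followed at smaller size. Of the TNF superfamily, Tnfsf14 rested on 3 counts in the 3 unstimulated vehicle libraries together, so its resting change is poorly bounded. It fell from 16.9 and 19.3 CPM in stimulated vehicle cells to 1.33, 2.14 and 2.92 with the compound.

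Among the genes changed the same way in both states, Arl5c, an ARF-like small GTPase, rose most in stimulated cells. It was at 22.4, 20.4 and 27.4 CPM with vehicle and 51.2 and 51.7 with Compound 10 at rest, and at 28.97 and 31.1 with vehicle and 592, 552 and 669 with Compound 10 after stimulation. The rise was 2.20-fold at rest and 20.1-fold in stimulated cells, an interaction of 3.19 ± 0.24 (adjusted p = 0.000129, edgeR's quasi-likelihood test), while stimulation with vehicle changed it 1.28-fold, which was not called. Mars2, the mitochondrial methionyl tRNA synthetase, showed the reverse order, a 4.40-fold rise at rest (25.8, 20.6 and 24.2 CPM to 108 and 99.6) and a 1.43-fold rise after stimulation (59.6 and 53.9 to 74.1, 78.9 and 89.6), an interaction of -1.63 ± 0.22. Bysl, a small subunit processing factor, fell in both states, 1.64-fold at rest and 4.86-fold after stimulation (-1.57 ± 0.22).

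**Figure D3:**
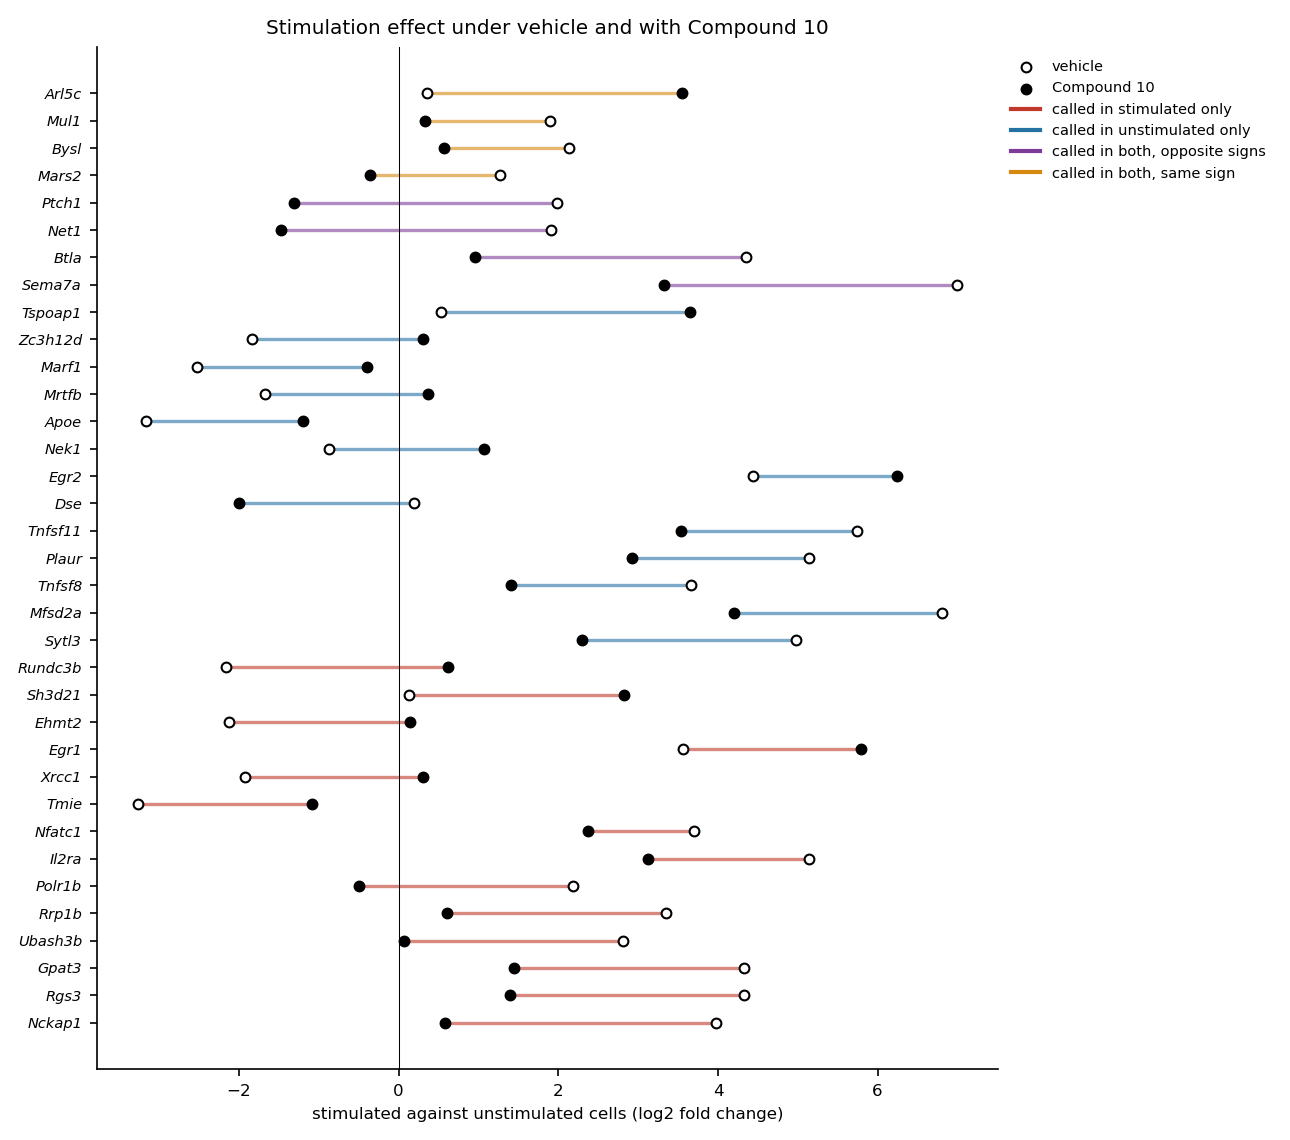
For named genes of each class, the log2 fold change of stimulated against unstimulated cells with vehicle (open circles) and with Compound 10 (filled circles), joined by a line coloured by class, so that the length of the line is the size of the interaction. Egr1 and Egr2 lie further right with the compound than with vehicle, Ubash3b and Polr1b lie near 0 with the compound, and Net1 and Ptch1 lie right of 0 with vehicle and left of 0 with the compound.

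Several genes that define T cell activation showed no called interaction. In a panel of 16 such genes the call was made for 4, Il2ra and Nfatc1 negative and Egr1 and Egr2 positive, against 6.63% of all genes, with a median of 0.26. Nr4a1, a nuclear receptor that reports receptor signals, was at 490 to 839 CPM and 475 to 560 CPM at rest, 31385 and 28744 after stimulation with vehicle and 25920, 24357 and 28319 after stimulation with Compound 10. Its interaction was 0.09, with a 95% interval of -0.54 to 0.73, within 1 log2 unit of 0. The interval of Myc, given above, also lay within 1, and those of Fos (-0.31 to 1.00), Jun (-0.87 to 0.41) and Nfkbia (-0.26 to 0.73) reached no further than 1. Tnf went from 22.7 to 46.6 CPM to 4237 and 3511 with vehicle and from 53.3 and 50.9 to 8424, 6381 and 7530 with compound, an interaction of 0.29 (-0.49 to 1.06). Cd69, an early activation antigen used in the sort, lay near the threshold, with 4077 and 4354 CPM in stimulated vehicle and 6172, 6182 and 6671 in stimulated Compound 10 cells and 283 to 330 at rest. Its interaction was 0.65 ± 0.18 with adjusted p = 0.0589 in edgeR, and 0.0112 by DESeq2 and 0.0499 by limma-voom.

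For cytokine genes that are silent at rest the interaction could hardly be measured. Il2, the main T cell growth factor, fell from 345 and 381 CPM in stimulated vehicle cells to 29.3, 50.5 and 46.9 with Compound 10 (-3.10 ± 0.23), but held 4 counts in the 3 unstimulated vehicle libraries and 2 in the unstimulated Compound 10 libraries. Its interaction of -2.61 ± 1.38 was not called (adjusted p = 0.306, edgeR's quasi-likelihood test), with a 95% interval of -5.64 to 0.42. Il3 and Csf2 had 0 counts in every unstimulated library, so no interaction is given. Il3 was at 6.31 and 5.19 CPM after stimulation with vehicle and 1.11, 1.37 and 1.42 after stimulation with Compound 10, and Csf2 at 2.70 and 4.85 against 4.97, 6.17 and 8.84. Of the 1955 genes that Compound 10 changed at least 2-fold in stimulated cells, 32 had under 10 counts in a resting group, and the interaction was called for 7 of them. Among all 3350 genes called in stimulated cells, with any size of change, it was called for 773, so the 7 of 32 are no measure of calls lost to few counts. With an interval as wide as that of Il2, an uncalled interaction of a silent gene is not evidence of equal effects.

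The other lists had smaller shares of called interactions than ribosome biogenesis genes (63.6%), and several lay near the share over all genes (6.63% called, 2.55% positive and 4.08% negative, median -0.00). TNF superfamily genes had 6 of 18 negative and none positive (33.3% called, median -0.65): Tnfsf8 and Tnfsf11 called at rest alone, Fasl in stimulated cells alone, Tnfsf14 and Tnfrsf9 in both, and Tnfrsf25 in neither. Fasl, the death ligand, and Tnfrsf25 had -1.11 and -1.08 and are named to complete the 6. EGR and NR4A factors with their NAB corepressors had 2 positive, Egr1 and Egr2, and 2 negative, Nr4a3 (-1.05 ± 0.28) and Nab1 (-1.21 ± 0.29), of 9 (44.4% called, median -0.13), and with no scaling neither negative call was made. Immediate-early and feedback genes had 1 positive, Btg2, and 3 negative, Zfp36l1, Dusp5 and Rgs2, of 32 (12.5% called, median -0.26). Dusp5, a phosphatase of ERK, was higher at rest (141 to 194 CPM with vehicle, 421 and 344 with compound) and close in stimulated cells (2190 and 2248 against 2097, 1786 and 2159), with -1.31 ± 0.24. By edgeR's quasi-likelihood test its adjusted p was 0.0570 and 0.0531 without stimulated vehicle library 1 or 2, and the calls for Nr4a3 and Nab1 were each made in 3 of the 10 fits without 1 library. Without either of these stimulated vehicle libraries the EGR list kept 1 positive and 0 negative calls and the immediate-early list 1 and 1.

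NF-kB genes had 2 positive, Icam1 and Tnip1, and 3 negative, Map3k8, Rel and Nfkb1, of 27 (18.5% called, median 0.00), and Rel, a subunit needed for cytokine transcription, was at 3352 and 2992 against 1645, 2211 and 1696 CPM in stimulated cells (-1.35 ± 0.26, and adjusted p = 0.0833 and 0.0506 without stimulated vehicle library 1 or 2, edgeR's quasi-likelihood test). NFAT and calcineurin genes had 2 negative, Nfatc1 and Csnk1a1, of 22 (9.09% called) with a median of 0.57. Anergy, exhaustion and restraint genes had 2 positive, Egr2 and Ubash3a, and 4 negative of 20 (30.0% called, median -0.19), which became 0 and 1 without stimulated vehicle library 1 or 2 and 2 and 1 with no scaling. AP-1 and related bZIP factors had 1 negative of 19, Bach1 (5.26% called), with a median of 0.08. Naive and quiescence genes had 1 positive, S1pr1, and 1 negative, Il6st, of 32 (6.25% called, median 0.13), and cytokines and chemokines 1 positive, Cxcl10, and 1 negative, Xcl1, of 19 (10.5% called, median -0.67). Xcl1, a chemokine of activated lymphocytes, held 0 counts in the unstimulated vehicle libraries and 4 in the unstimulated Compound 10 libraries, so no size of its interaction is given, and the call was not made without unstimulated Compound 10 library 2 or stimulated vehicle library 1 or 2 (adjusted p up to 0.120, edgeR's quasi-likelihood test). Without stimulated vehicle library 1 or 2 there was no call in the NFAT, AP-1 and cytokine lists, and 1 positive and 1 negative in the NF-kB list.

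Among stress, growth and cell cycle lists the share of called interactions was above the 6.63% of all genes for p53 targets (16%), glycolysis and hypoxia genes (15.4%) and heat shock proteins (13%), and below it for stress response, NRF2 (4.35% each) and DNA replication genes (2.94%). Heat shock proteins had 3 negative of 23 (median -0.31), the integrated stress and unfolded protein response 1 negative of 23 (-0.29), NRF2 and antioxidant genes 1 negative of 23, Hmox1 (-0.23), and aryl hydrocarbon receptor targets 1 negative of 3, Tiparp (-1.20). p53 targets had 4 positive of 25 (median 0.03), DNA replication genes 1 positive of 34, Cdc6 (0.02), and sterol and fatty acid synthesis genes 2 negative of 31, Cyp51 and Sqle (6.45% called, median -0.34). Glycolysis and hypoxia genes had 4 negative of 26 (-0.46), with Pgam1, Hif1a, Egln3 and Pfkfb3. These counts were lower without a stimulated vehicle library: without library 1 or 2 of that group, 1 glycolysis and hypoxia gene was negative (and, without library 2, 2 were positive), no heat shock gene was called and 1 p53 target was. Of 33 mitotic spindle and kinetochore genes, 16 were higher in stimulated and 14 higher in unstimulated cells (10.4% and 4.65% of all genes), with medians of 1.09 and 0.73. In these states 0 and 1 were lower (12.8% and 3.78% of all genes). A called interaction was found for 2, Ccnb2 and Ndc80, both positive (median 0.23), and the fit without stimulated Compound 10 library 1 called 0 of the list. Without stimulated vehicle library 1 or 2 the median was 0.20 in each case. In this list the compound effect was thus called for 16 and 15 genes in the states, and a difference between the states for 6.06% of its genes against 6.63% of all. Interferon and antigen presentation genes had no call in 33 (median -0.10), by edgeR's quasi-likelihood test. Among T cell identity markers 2 of 12 were negative, Trac and Cd2 (median -0.42), among regulatory T cell markers 1 of 9, Il2ra (-0.82), and among memory or effector markers 2 of 11, Cd44 and Il2rb (-0.31).

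**Figure D4:**
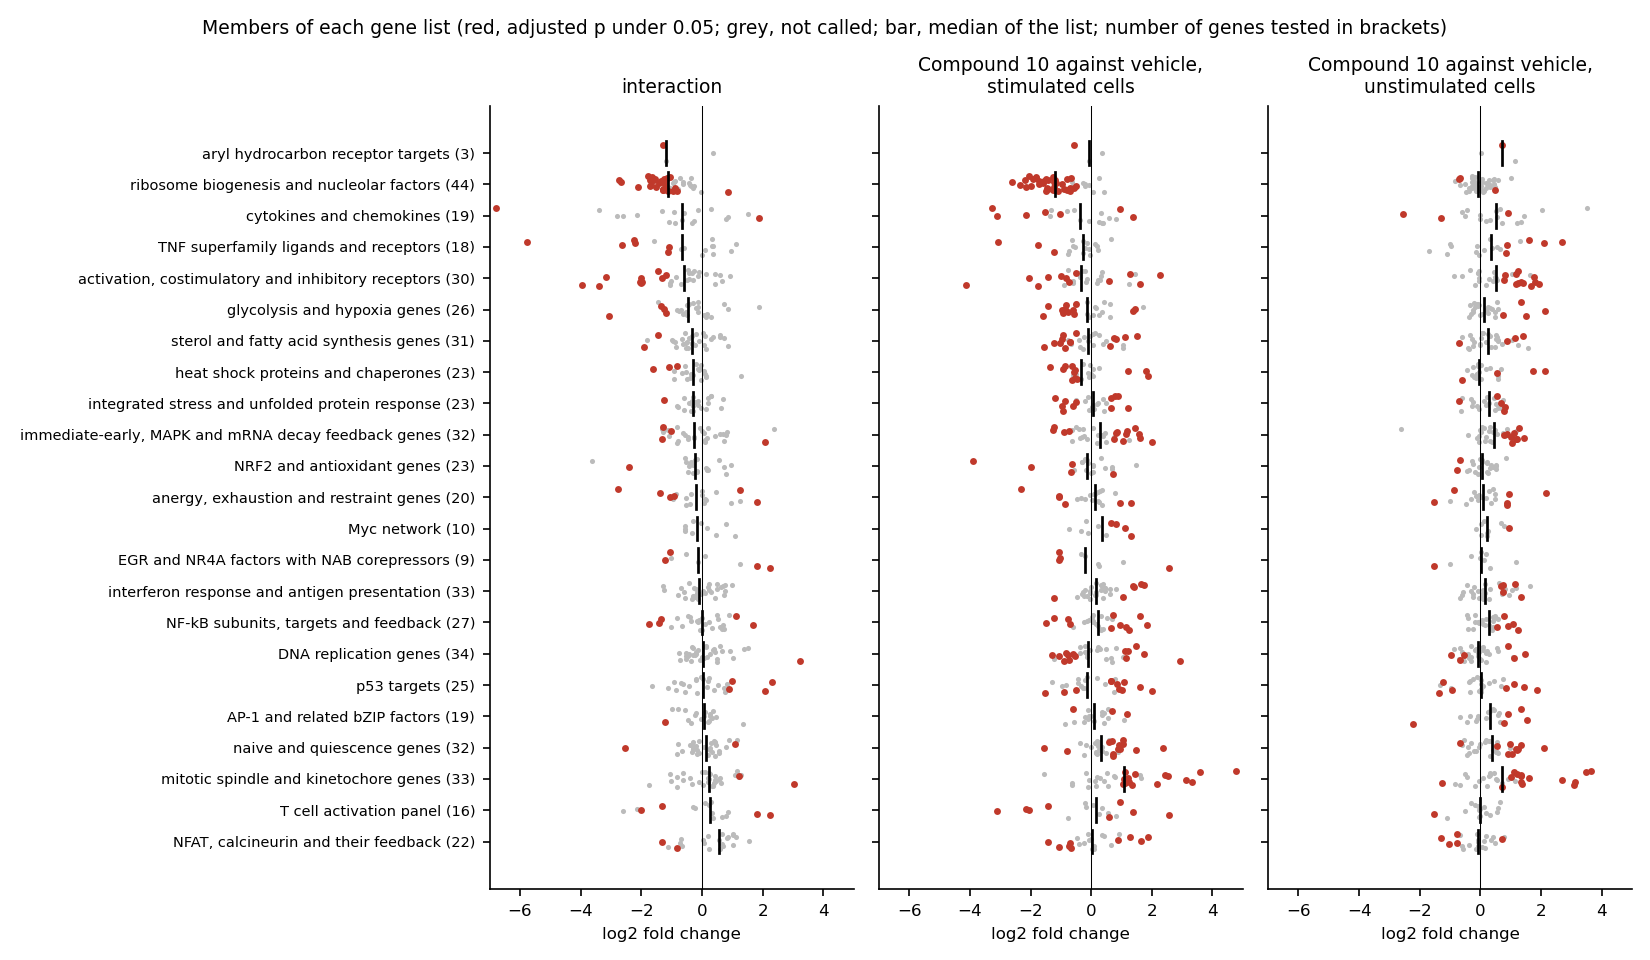
Log2 fold changes of the members of each gene list (points, red where adjusted p was under 0.05) and the median of each list (bar), for the interaction and for Compound 10 against vehicle in stimulated and unstimulated cells. The 44 ribosome biogenesis genes lie to the left in the interaction and stimulated panels and around 0 in the unstimulated panel, and the 33 mitotic genes lie to the right in the stimulated and unstimulated panels and around 0 in the interaction panel.

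Genes with a called interaction also differed in annotation from the genes tested as a whole, as a description without a test. The median genomic span was 18.1 kb over all genes tested, 19.99 kb for genes lower and 29.04 kb for genes higher in stimulated cells alone, and 27.1 and 38.5 kb for the negative and positive genes of the resting class. Median average log2 CPM was 3.52 over all tested genes, and 5.90, 4.65, 6.10 and 4.02 in these 4 sets, which were thus more abundant than the genes tested as a whole. Genes with more counts are easier to call, and the part of this in the differences of level and span was not tested.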

How the data were processed

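RNA was sequenced from 10 libraries of sorted mouse naive CD4 T cells in 4 groups, made per the labels' protocols with Qiagen extraction and a Clontech SMART-seq kit. Tools named in the submitters' processing notes are cutadapt and kallisto, without versions, and the build is mm10. The authors deposited 1 table per library with estimated counts and TPM per transcript, per the file headers. No test used the TPM values. Counting by strand is not given in the sources used here, so overlapping antisense genes, and close paralogs between which kallisto divides reads, are uncertain.

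Estimated counts were summed over 108214 of 109617 transcripts matched to GENCODE M21 genes (mm10) and rounded. The 1403 unmatched transcripts held 0.507% to 0.671% of a library's counts. TMM factors lay between 0.731 and 0.850 after stimulation and between 1.20 and 1.34 at rest, and filterByExpr kept 14417 of 45321 genes. A single fit with 1 coefficient per group (edgeR 4.0.16, limma 3.58.1, R 4.3.3) gave quasi-likelihood F tests of the interaction and of each simple effect, with Benjamini-Hochberg adjustment over all genes tested and a threshold of 0.05. Called, rose, fell, higher and lower are used of genes that passed. The SE comes from the estimate and its F statistic. No library was a repeat of another in its group, since chi-square values of their counts were at least 13.3 times the degrees of freedom. Simulated data were used to check the test. Changes were placed only in genes above a minimum level, so genes with few counts were not covered. Among the placed changes most 2-fold interactions were not called and most 4-fold ones were. An uncalled interaction is therefore not evidence of equal effects.

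The groups, gene lists and named genes were chosen with earlier results of these data known. The rule named a panel of 16 genes, the 6 largest interactions of each sign in the stimulated and resting classes and the 4 largest in the other classes called in both states (average log2 CPM of at least 3, without unnamed models, pseudogenes, ribosomal protein, mitochondrial and antigen receptor segment genes), and up to 4 called members of each list. Promoter windows came from RefSeq (GRCm38.p6). Alternatives were other scalings, DESeq2 1.42.0, limma-voom, other filters, blocks, thresholds and leaving out each library.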

Additional observations from a re-analysis of the deposited data

Results flagged for a closer look

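In 12 named genes the effect of Compound 10 differed between the states by the test of the difference itself, and was called with opposite signs in each state. The interactions were -3.67 for Sema7a, -3.39 for Btla, -3.39 for Net1, -3.30 for Ptch1, -3.18 for Il2rb, -3.08 for Egln3, -2.64 for Tnfrsf9, -2.05 for Cd6, -1.75 for Map3k8 and -1.29 for Tiparp, each higher at rest and lower after stimulation with the compound. Tnfsf14 had -5.78, a fitted value that rests on 3 counts in unstimulated vehicle cells and is no bound. Polk, a translesion DNA polymerase, went the other way with 2.30, at 13.3, 11.8 and 10.2 CPM with vehicle and 5.05 and 5.02 with compound at rest, and at 2.58 and 2.94 with vehicle and 6.85, 4.03 and 6.72 with compound after stimulation. Egln3, a prolyl hydroxylase of the hypoxia response, was at 0.986, 1.96 and 0.947 CPM with vehicle and 3.90 and 3.46 with compound at rest, and at 3.86 and 4.50 with vehicle and 1.88, 0.943 and 1.42 with compound after stimulation. The calls for Polk and Egln3 were lost without stimulated vehicle library 1 (adjusted p = 0.0669 and 0.0590, edgeR's quasi-likelihood test) or library 2 (0.0501 and 0.0709), and the other 10 were called in every fit without 1 library.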

How the results depend on the processing

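The total of 956 became 1692 with DESeq2, 1504 with a replicate block, 2167 with a block for runs of sample index numbers, 1448 with no filter and 238 at a threshold of 0.01. Positive and negative calls were 693 and 999 (DESeq2), 596 and 908 (replicate block), 877 and 1290 (index-run block) and 63 and 175 (0.01), with 648 positive without a filter and 314 negative without scaling. The stimulated class held 1075, 1054, 1331 and 178 genes under DESeq2, the replicate block, the index-run block and 0.01, and the resting class 261, 217, 342 and 32, with 277 without a filter and 78 when a class needed a 3-fold ratio of effects. Genes called in both states with opposite signs numbered 113, 98, 156 and 11 under the same 4 settings and 126 with a threshold of 0.1 for the simple effects. Those with the same sign numbered 138, 81, 228 and 2, with 78 under a stricter filter and 76 at 0.1. Genes called in neither state numbered 105 with DESeq2, 110 with the index-run block, 21 with limma-voom, 105 with no filter, 15 at 0.01 and 0 at 0.1, the last by construction. Other causes were not tested.

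Leaving out 1 library gave 191 to 1332 calls in all, 45 to 537 positive and 146 to 795 negative, 124 to 950 in the stimulated class, 44 to 191 in the resting class, 17 to 66 opposite, 3 to 47 of the same sign and 3 to 78 in neither state. Of 78 named genes with a called interaction, 37 were called in all 10 such fits. Among genes without a call the sign turned over in these fits for Cd40lg (-0.12 to 0.71), Tnf (-0.063 to 0.50) and Nr4a1 (-0.18 to 0.25), each lowest without unstimulated vehicle library 1, and Nr4a1 was also below 0 without unstimulated Compound 10 library 2 (-0.035). The labels do not say that replicate numbers pair libraries, and same-numbered libraries correlated in their deviations from group means at -0.35 to 0.434 (5 of 13 pairs over 0.1), so the replicate block of 1504 calls, 854 of them among the 956, describes numbers and not a design. Index runs are numbers in file names, not a labelled batch, and only the run 19 to 22 holds all 4 groups, with 1 library each. Deviations of libraries of the same run correlated at a median of 0.126 (7 of 12 pairs over 0.1), and of different runs at -0.0757 (2 of 25). In a group of 2 libraries the deviations are mirror images of each other. Unstimulated vehicle library 3 thus had 0.564 with unstimulated Compound 10 library 2 and -0.564 with library 1 of that group. The correlations by run and by number are therefore not independent, and part of their contrast is fixed by construction. Within the run 19 to 22 all 956 genes had the sign of the full fit, of which these libraries are a part. Depth limits genes near 0 counts at rest.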
